A study of Gallus gallus with 18 samples.

Results

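Chromatin modifiers write, erase and read chemical marks on DNA and histones, and chromatin remodellers use ATP to slide or evict nucleosomes. DNA methyltransferases (DNMT) and the TET enzymes add and oxidise cytosine methylation, EZH, KMT, SETD and PRMT proteins methylate histones and other proteins, KDM proteins demethylate them, HDAC proteins remove acetyl groups, and SMARC and CHD proteins are subunits of remodelling complexes. In a gastrulating embryo these proteins are known for holding the genes of later lineages silent or ready while epiblast cells pass through the primitive streak and become mesoderm and endoderm.

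The members were chosen by name, as the probesets of the Affymetrix chicken array whose annotated symbol begins KDM, KMT, SMARC, HDAC, DNMT, EZH, SETD, PRMT, TET plus a number or CHD plus a number. CHD1, SMARCA2, KDM4C and SETDB2 were left out by the rule. This gave 170 probesets of 65 genes, of 38535 probesets on the array. By the current chicken assembly (GRCg7b) 64 of the 65 genes lie on numbered chromosomes and 1, SETD9, on Z, over 27 chromosomes in all.

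The arrays were made from 9 male and 9 female White Leghorn embryos at Hamburger-Hamilton stage 4, labelled as 1 day of age, with 1 array per embryo. All were kept for 3 h in EC culture (a whole-embryo culture on albumen) before a square of primitive streak tissue with the epiblast beside it was cut out, and their RNA was amplified in 2 cycles. Male birds carry a pair of Z chromosomes (ZZ) and females a Z and a W (ZW). The sex of each sample was assigned in the study from the W-linked gene HINTW. In the deposited values its brightest probeset had a signal of 18.2 ± 22.1 in males and 29331 ± 2545 in females (SD, n = 9 each), so this difference was fixed by that choice. Some embryos had been electroporated with plasmids carrying various constructs, among them a fluorescent reporter, to monitor RNA extraction and amplification. The study reported that its sexually dimorphic genes did not differ statistically between these and control embryos of one sex, and pooled them. The labels do not say which were electroporated, so the 2 kinds cannot be told apart here. The eggs came from commercial sources and the embryos are separate animals.

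Values are MAS5 signals, an intensity without a unit on arrays that were each scaled alike. A probeset was tested where its signal was at or over a detection level of 128.9 in at least 9 of the 18 embryos. Of the members 89 probesets of 53 genes were tested, and 72 of these (80.9%, against 76.1% of all tested probesets) were over the level in all 18 embryos. Differences are log2 signal in males minus log2 signal in females, tested with limma with adjustment over all tested probesets. A probeset with an adjusted p under 0.05 is called male-higher or female-higher. Since the tissue was measured in bulk, fewer cells of a type and less RNA per cell cannot be told apart.

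The member genes on numbered chromosomes had no probeset that passed the test between the sexes, and the single Z-linked member, SETD9, was male-higher at all 3 of its probesets. These 3 were the male-higher members of 89 (2.48% of all tested probesets were male-higher), and 0 members were female-higher (0.282% of all; 2.76% of all were called in either direction). At an unadjusted p under 0.05 there were 7 members, against 8.56% of all tested probesets, and 4 of the 7 were of genes other than SETD9. The ranges of the sexes did not overlap for 2 members, both of SETD9 (1.31% of all tested probesets). On numbered chromosomes 0.181% of all tested probesets were called in either direction, so 0 of 86 members is near this background.

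How large a difference the data still allow was read from the 95% interval of each difference. For 76 of the 89 members (85.4%) this interval lay within 1.5-fold in both directions, as it did for 74.4% of all tested probesets and 79.1% of those on numbered chromosomes. Without SETD9 it was 76 of 86 (88.4%), and the differences of these 86 ran from -0.40 to 0.46. The counts of bounded probesets per family given below are to be read beside the shares of all tested probesets. The median difference of all 89 members was -0.015 and that of all tested probesets -0.008. The members differed by a median of 0.09 in size (0.11 for all tested probesets), with a median SD among embryos of one sex of 0.30 on the log2 scale, the same as for all tested probesets. Over the tested members the mean log2 signal of an embryo was 9.66 ± 0.05 in males and 9.65 ± 0.05 in females (SD, n = 9 each).

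**Figure D1:**
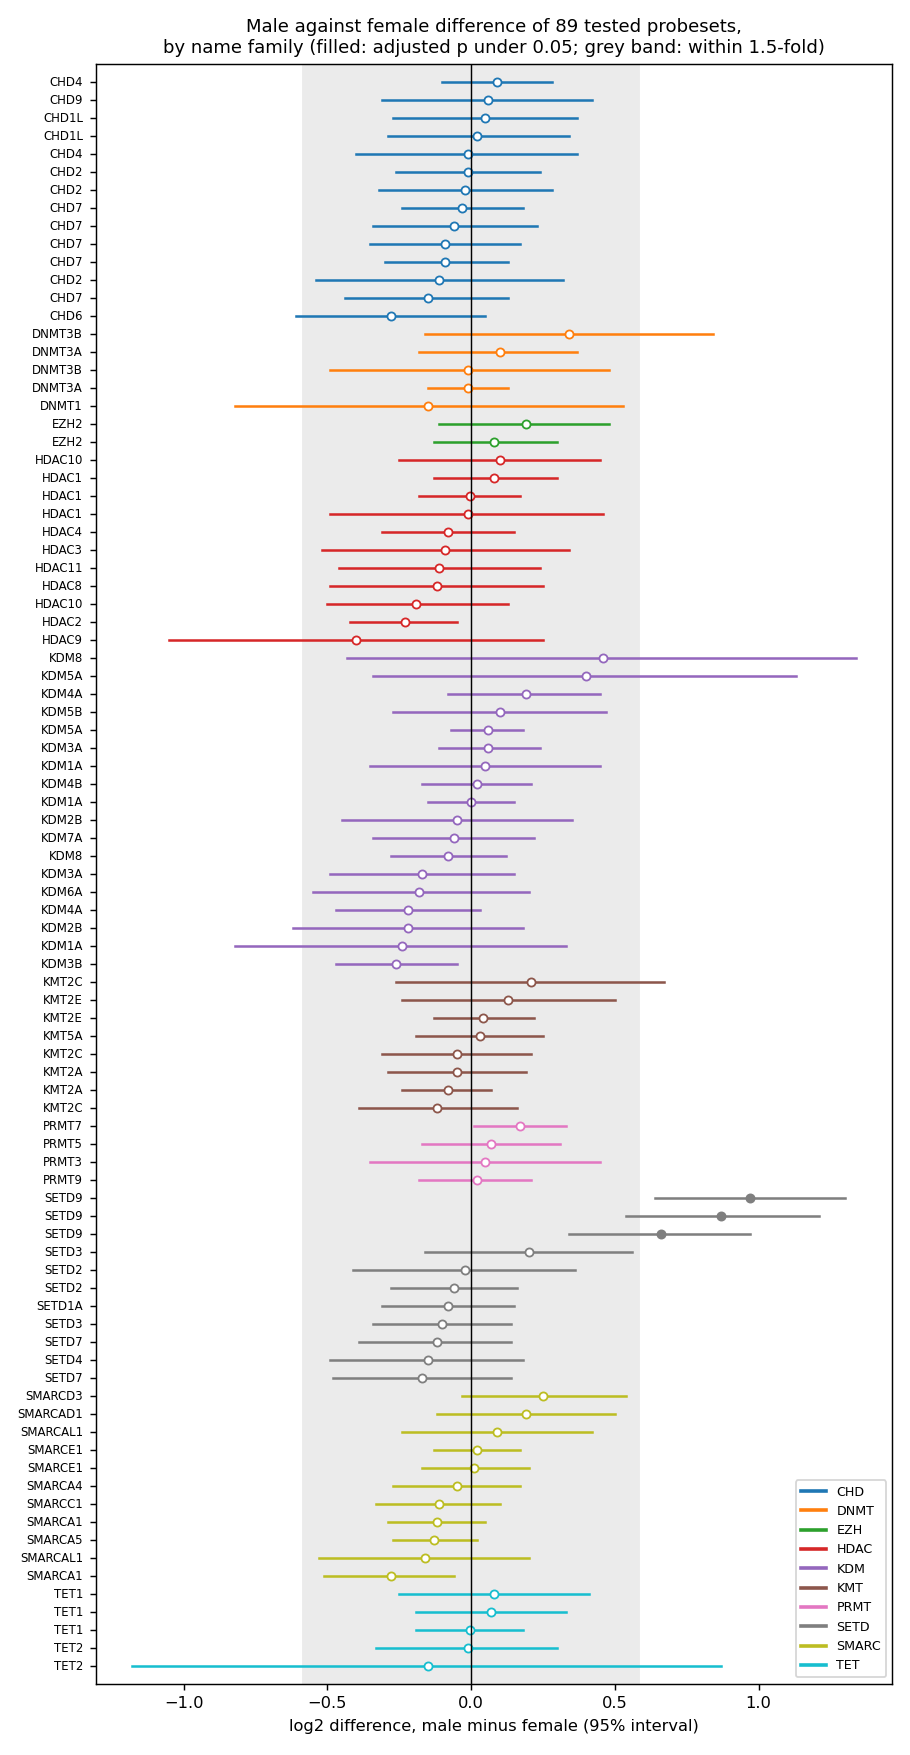
Log2 difference in signal, males minus females, of the 89 tested probesets (points) with its 95% interval from limma (lines), ordered by size within each name family (colours). Filled points passed an adjusted p of 0.05 and the grey band marks 1.5-fold; only the 3 SETD9 probesets are filled, at 0.66, 0.87 and 0.97.

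SETD9 encodes a SET domain protein, the fold shared by most lysine methyltransferases. At the brightest of its probesets the lowest, median and highest signals were 798, 1042 and 1497 in males and 310.4, 624 and 698 in females. Every male was above every female. The means were 1084 ± 220.3 in males and 561 ± 134 in females (SD, n = 9 each), a ratio of 1.93 and a log2 difference of 0.97 (SE 0.16, 95% interval 0.64 to 1.30, adjusted p from limma 5.7e-04).

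At the second probeset males had 453, 556 and 861 as lowest, median and highest signal and females 194, 321 and 429, again with no overlap. The means were 605 ± 147 in males and 331 ± 78.0 in females, a log2 difference of 0.87 (SE 0.16, 95% interval 0.54 to 1.21, adjusted p from limma 0.0016). For both probesets the exact permutation p over all splits of the embryos was 4.1e-05, the smallest that 9 against 9 can give (2-sided). The dimmest of the 3 had 277, 368 and 432 in males and 145, 227 and 308 in females. Here the ranges overlapped, with 7 males above the highest female. The means were 357 ± 52.8 in males and 232 ± 63.0 in females, a log2 difference of 0.66 (SE 0.15, 95% interval 0.34 to 0.97, adjusted p from limma 0.016, exact permutation p = 4.9e-04). When no filter on low signals was used, so that more probesets were adjusted for, the adjusted p from limma of this probeset was 0.084. The 3 probesets share their target and are not independent. Of all tested probesets of genes placed on Z, 57.0% were male-higher.

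**Figure D2:**
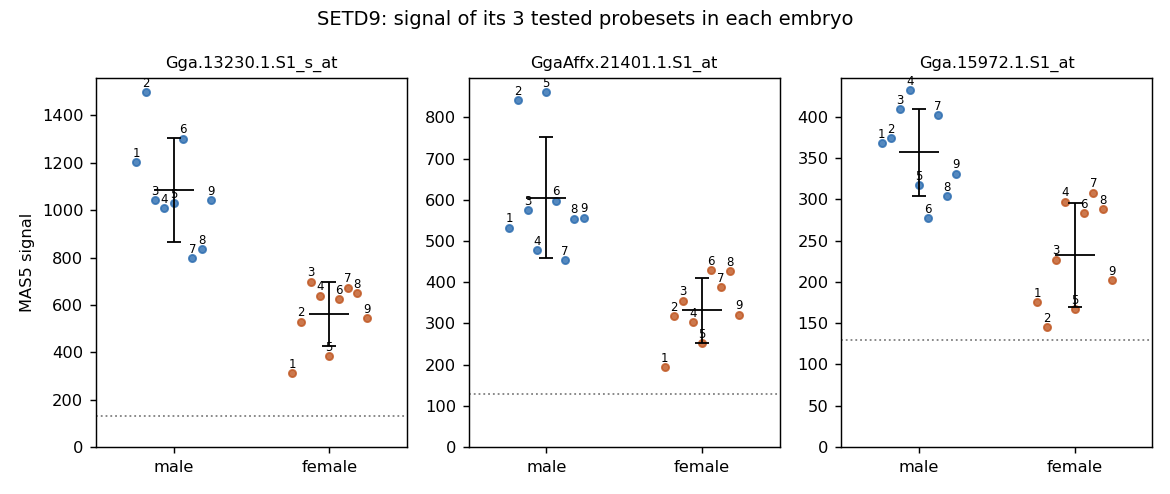
MAS5 signal of the 3 tested SETD9 probesets in each of 9 male (blue) and 9 female (orange) embryos, numbered by replicate, with the mean and SD (black) and the detection level (dotted). The sexes do not overlap at the left and middle probesets; at the right one the female range of 145 to 308 reaches into the male range of 277 to 432.

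The 4 genes that the rule leaves out bear on the counts above. They have 8 probesets, of which 4 were tested, and 3 of these 4 were male-higher and 0 female-higher (2.48% and 0.282% of all tested probesets). Of the 3, 2 are probesets of CHD1, a remodeller gene on Z, and 1 is of SETDB2, a methyltransferase gene on chromosome 1. Of all tested probesets of genes on Z, 57.0% were male-higher, and on numbered chromosomes 0.181% were called in either direction. The absence of calls among members on numbered chromosomes therefore holds for the genes listed here and not for every gene of these families.

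Among genes of DNA methylation and its removal 0 probesets were called, and 3 of the 5 DNMT and 4 of the 5 TET probesets were bounded within 1.5-fold. DNMT3A, a de novo DNA methyltransferase, had a lowest, median and highest signal of 6589, 7583 and 7922 in males and 6514, 7375 and 8272 in females at its brighter probeset. The ranges overlapped almost wholly. The means were 7381 ± 521 in males and 7439 ± 615 in females, with a 95% interval of the log2 difference from -0.15 to 0.13. TET1, a dioxygenase that oxidises methylated cytosine, had means of 9845 ± 893 in males and 9908 ± 1327 in females (95% interval -0.19 to 0.18), and its 2 other tested probesets differed by 0.07 and 0.08. TET2, of the same family, averaged 823 ± 143 in males and 848 ± 229.8 in females (95% interval -0.33 to 0.30).

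DNMT3B, the other de novo methyltransferase, was less closely bounded. Its brighter probeset had 16072, 22888 and 28552 in males and 5192, 20386 and 26719 in females. The lowest value belonged to female 8, and the ranges overlapped with or without it. The means were 22276 ± 3857 in males and 18864 ± 6493 in females, and the log2 difference of 0.34 (SE 0.24, 95% interval -0.16 to 0.84) had an adjusted p from limma of 0.803. Without female 8 the difference was 0.12 (adjusted p from limma 0.876). DNMT1, the maintenance methyltransferase, lay near the detection level, with 47.5, 166 and 333 in males and 99.5, 155 and 256 in females, and reached the level in 5 males and 7 females. Its interval, -0.82 to 0.53 around a log2 difference of -0.15, was too wide to bound the difference within 1.5-fold.

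Among histone methyltransferases, EZH2, the catalytic subunit of Polycomb repressive complex 2 that methylates histone H3 at lysine 27, had 9724, 10792 and 12609 as lowest, median and highest signal in males and 7107, 10943 and 12857 in females. The female range enclosed the male range. The means were 11002 ± 824 in males and 10522 ± 1919 in females (log2 difference 0.08, 95% interval -0.13 to 0.30, adjusted p from limma 0.908), and the second EZH2 probeset averaged 1792 ± 265 in males and 1607 ± 412 in females (0.19, 95% interval -0.11 to 0.48). KMT2A, which methylates lysine 4 of histone H3 at active genes, averaged 2491 ± 259.8 in males and 2631 ± 165 in females (95% interval -0.24 to 0.07). SETD2, which trimethylates lysine 36 in transcribed genes, averaged 6028 ± 722 in males and 6333 ± 1144 in females (95% interval -0.28 to 0.16).

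Over the KMT family, 7 of 8 tested probesets were bounded within 1.5-fold. The exception was the brightest KMT2C probeset, at 2055 ± 640.4 in males and 1791 ± 615 in females (95% interval -0.26 to 0.67). KMT2C encodes a lysine 4 methyltransferase of enhancers, and its 2 other tested probesets differed by -0.12 and -0.05. In the SETD family the 8 tested probesets that are not of SETD9 were all bounded within 1.5-fold. The arginine methyltransferases had 4 tested probesets, all bounded within 1.5-fold. PRMT5, the main enzyme of symmetric arginine dimethylation, averaged 3646 ± 556 in males and 3473 ± 555 in females (95% interval -0.17 to 0.31). PRMT7, an arginine monomethyltransferase, had 749, 871 and 1050.0 in males and 692, 786 and 884 in females. The ranges overlapped, and its log2 difference of 0.17 (SE 0.08, 95% interval 0.01 to 0.33) had an exact permutation p of 0.016 and an adjusted p from limma of 0.500.

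The histone demethylases gave 18 tested probesets, of which 9 were above 0 and 9 below, with differences from -0.26 to 0.46, and 14 of 18 (77.8%) were bounded within 1.5-fold. KDM1A, which demethylates lysine 4 of histone H3 in the CoREST complex, averaged 4714 ± 393 in males and 4711 ± 411 in females at its brightest probeset. Its 95% interval ran from -0.15 to 0.15 there, and from -0.82 to 0.33 around a log2 difference of -0.24 at its dimmest tested probeset (131 ± 55.5 in males and 154 ± 58.8 in females). KDM2B, which brings a Polycomb complex to CpG islands, averaged 614 ± 146 in males and 729 ± 238 in females (95% interval -0.62 to 0.18). KDM5B, an eraser of lysine 4 methylation, averaged 219 ± 56.6 in males and 205 ± 55.2 in females (95% interval -0.27 to 0.47). KDM6A, an eraser of lysine 27 methylation, averaged 159 ± 41.7 in males and 180.0 ± 49.9 in females, over the level in 7 males and 8 females (95% interval -0.55 to 0.20).

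KDM3B, a demethylase of lysine 9, was singled out after its values were seen. It had 678, 862 and 1122 in males and 794, 1036 and 1158 in females, overlapping ranges with the lower median in males. The log2 difference was -0.26 (SE 0.10, 95% interval -0.47 to -0.05, adjusted p from limma 0.342, exact permutation p = 0.016). It did not pass the adjusted threshold.

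Of the histone deacetylase probesets 9 of 11 had differences below 0, from -0.40 to 0.10, and 10 of 11 were bounded within 1.5-fold. HDAC2, a subunit of the NuRD, SIN3 and CoREST complexes, had 8312, 10713 and 11939 in males and 10342, 12391 and 14386 in females. The ranges overlapped between 10342 and 11939. Its means were 10429.8 ± 1313 in males and 12214 ± 1316 in females, a ratio of 0.854 and a log2 difference of -0.23 (SE 0.09, 95% interval -0.42 to -0.05). The exact permutation p was 0.012 and the adjusted p from limma 0.343, so HDAC2 did not pass the test. HDAC1, its close paralog in the same complexes, averaged 2985 ± 212 in males and 3012 ± 409 in females (95% interval -0.18 to 0.17). HDAC3, the enzyme of the NCoR complex, averaged 499 ± 235 in males and 513 ± 144 in females (95% interval -0.52 to 0.34). HDAC9, a class IIa deacetylase, had the largest difference in size of the family, -0.40 (95% interval -1.05 to 0.25, adjusted p from limma 0.836), at signals near the detection level (over it in 3 males and 7 females).

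Remodeller subunits were mostly bounded within 1.5-fold. All 11 tested SMARC probesets and 13 of 14 tested CHD probesets had such intervals, against 79.1% of all tested probesets on numbered chromosomes. SMARCA4, the ATPase of the BAF complex, had 1569, 1935 and 2355 in males and 1589.7, 2060.3 and 2484 in females. The ranges were nearly the same, and the means were 1956 ± 271 in males and 2026 ± 316 in females (95% interval -0.27 to 0.17). SMARCC1, a core BAF subunit, averaged 5588 ± 939.7 in males and 6007 ± 698 in females (95% interval -0.33 to 0.10). SMARCD3, the BAF subunit known from heart development in the mouse, averaged 210.2 ± 35.8 in males and 178 ± 39.3 in females (log2 difference 0.25, 95% interval -0.03 to 0.54, adjusted p from limma 0.679).

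SMARCA1, an ISWI ATPase, differed most of its family. At its dimmer probeset it had 345, 418 and 558 in males and 397, 502 and 644 in females, with a wide overlap. The log2 difference was -0.28 (SE 0.11, 95% interval -0.51 to -0.06, adjusted p from limma 0.340, exact permutation p = 0.018), and that of its other probeset -0.12 (adjusted p from limma 0.779).

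CHD4, the ATPase of the NuRD complex, averaged 6996 ± 914 in males and 6572 ± 719 in females (95% interval -0.10 to 0.28). CHD7, a remodeller of enhancers that is mutated in CHARGE syndrome in humans, had 5 tested probesets with differences from -0.15 to -0.03, and the brightest averaged 5144 ± 911 in males and 5224 ± 595 in females (95% interval -0.24 to 0.18). CHD6, of the same subfamily, was the CHD probeset not bounded within 1.5-fold. It averaged 189 ± 49.9 in males and 223 ± 27.3 in females (log2 difference -0.28, 95% interval -0.61 to 0.05, adjusted p from limma 0.694).

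**Figure D3:**
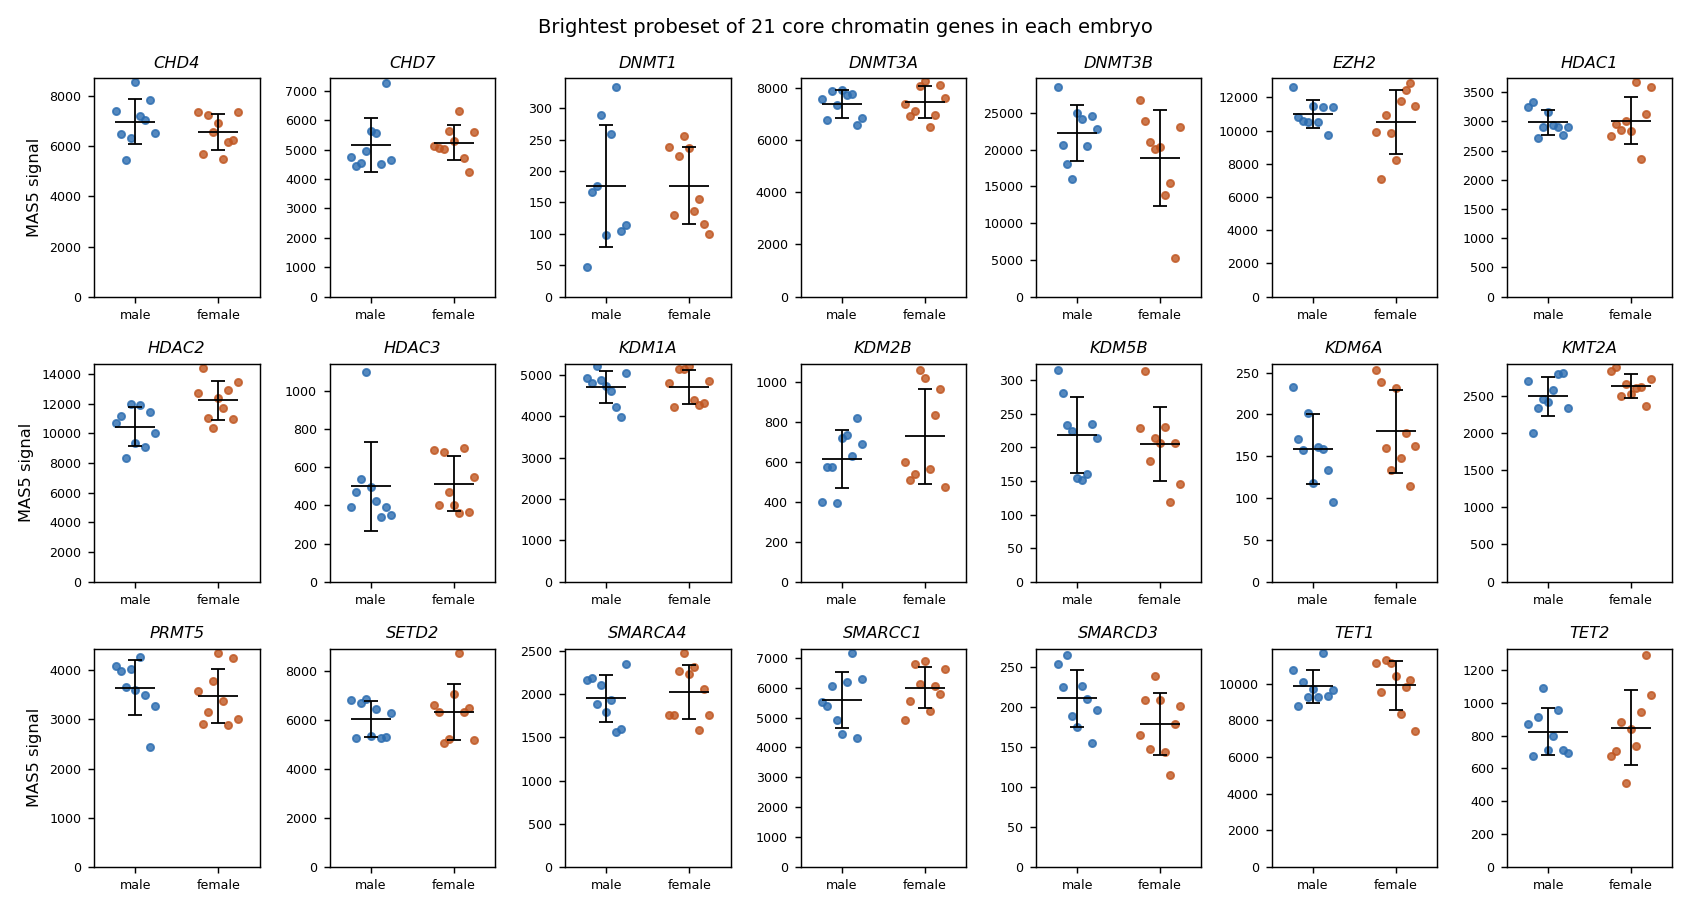
MAS5 signal of the brightest tested probeset of 21 well known chromatin genes in each of 9 male (blue) and 9 female (orange) embryos, with the mean and SD (black); each panel has its own scale from 0. The sexes overlap in every panel, and HDAC2 has its lower mean in males (10429.8, against 12214 in females). Single embryos lie apart for CHD7 (male 8, 7265), DNMT3B (female 8, 5192) and HDAC3 (male 4, 1101).

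The spread among embryos of one sex was larger than the typical difference between the sexes, with medians over the tested members of 0.30 for the SD and 0.09 for the size of the difference on the log2 scale. The 5 most variable were dim or lay apart from another probeset of their gene. The dimmer TET2 probeset had the largest pooled SD, 1.12. It ran from 53.2 over a median of 172 to 699 in males and from 46.4 over 202 to 461 in females, and was at or over the level in 6 embryos of each sex. Its 95% interval was -1.18 to 0.87. The brighter probeset of KDM8, a JmjC protein, followed with a pooled SD of 0.97. It ran from 446 over 717 to 2578 in males and from 235 over 773 to 1817 in females, above the detection level in every embryo. Its log2 difference of 0.46 was the largest of a member other than SETD9, with a 95% interval of -0.43 to 1.34 and an adjusted p from limma of 0.868.

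The others were a dim KDM5A probeset (pooled SD 0.80), DNMT1 (0.73) and HDAC9 (0.71). KDM5A, an eraser of lysine 4 methylation, had 104, 178 and 199 in males and 23.2, 162 and 266 in females at this probeset, and the lowest value was that of female 9. The log2 difference was 0.40 (95% interval -0.34 to 1.13), and 0.10 without female 9. Its bright probeset averaged 1999 ± 125 in males and 1921 ± 109 in females (95% interval -0.07 to 0.18). HDAC9 had 61.9, 99.1 and 396 in males and 102, 144 and 355 in females, and its highest values came from male 8 and female 9. Its log2 difference was -0.62 without male 8 (adjusted p from limma 0.379) and -0.25 without female 9 (adjusted p from limma 0.840). Male 8 and female 9 were also the highest of their sex for the organizer marker GSC (3319 in male 8, against a male median of 63.8, and 2163 in female 9, against a female median of 39.5) and for the endoderm marker HHEX (5611 in male 8, against a male median of 573, and 5088 in female 9, against a female median of 616). GSC was over the detection level in only 2 males and 2 females and was not tested. Of the other organizer genes, FOXA2 and NOTO were also highest in these embryos. CHRD was highest in male 9 (4596) and female 6 (5019), SHH in male 2 (61.4) and female 6 (78.9), and NOG in male 4 (192) and female 5 (250.2). All genes of the endoderm list were highest in male 8 and female 9. Both embryos stood apart for other lists too. They were highest of their sex for OTX2 (4764 and 3880.0) and the streak genes FGF8 (1657 and 1191), EOMES (807 and 656), MIXL1 and NODAL. NODAL was below the detection level in every embryo. Male 8 and female 9 were lowest of their sex for MSGN1 (7118 and 3339), WNT3A (4555 and 4863) and the endothelial precursor gene KDR (106 and 86.6). The surface ectoderm genes DLX5 and MSX1 were highest in female 9 (13378 and 7212), but among males in male 6 (4756 and 4498). The streak genes TBXT, TBX6, WNT8A and FGF4, and the epiblast genes other than OTX2, were neither highest in both nor lowest in both. The part of these markers in the HDAC9 signal was not tested.

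**Figure D4:**
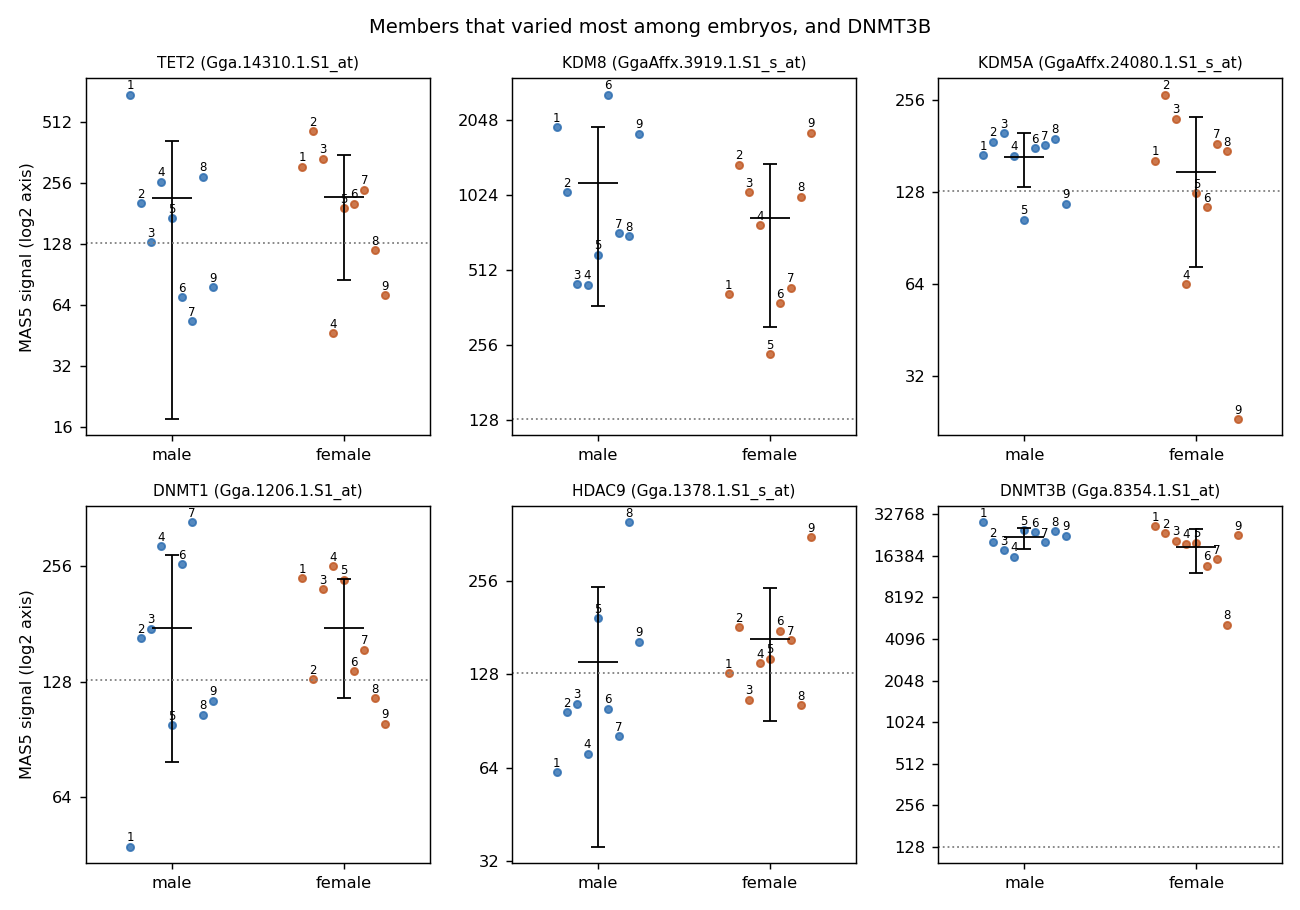
MAS5 signal, on a log2 axis, of the 5 tested members with the largest SD among embryos and of DNMT3B, in 9 male (blue) and 9 female (orange) embryos numbered by replicate, with the mean and SD of the signal (black) and the detection level (dotted). TET2 is highest in male 1 (699), KDM5A lowest in female 9 (23.2), HDAC9 highest in male 8 (396) and female 9 (355), and DNMT3B lowest in female 8 (5192).

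The highest and lowest values of the members were spread unevenly over the embryos. Male 1 was the highest male for 20 of the 89 members (22.5%, against 11.6% of all tested probesets), and male 7 was the lowest male for 17 (19.1%, against 10% of all). Female 9 was the lowest female for 19 members (21.3%, against 19.2% of all). Female 9 and males 5, 6 and 8 lay between -42.4 and -22.6 on the first principal component of all tested probesets, and the other embryos between -12.2 and 25.7. Without these 4 embryos SETD9 again gave 3 male-higher probesets, 0 members were female-higher and 67 of 89 were bounded within 1.5-fold.

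Probesets of one gene did not always give one sign. For 27 genes with several tested probesets (63 probesets) the median distance between the highest and lowest difference was 0.14, and in 13 of them the signs were opposite. The 3 genes with the widest spread were KDM8, KDM4A and DNMT3B. The second KDM8 probeset differed by -0.08 (385 ± 56.3 in males and 404 ± 42.8 in females, 95% interval -0.28 to 0.12), against 0.46 at the first. KDM4A, which demethylates lysines 9 and 36, averaged 422 ± 80.0 in males and 489 ± 73.0 in females at one probeset (-0.22, adjusted p from limma 0.682) and 433 ± 70.4 in males and 379 ± 64.0 in females at the other (0.19, adjusted p from limma 0.786). The dim DNMT3B probeset averaged 137 ± 53.3 in males and 133 ± 37.3 in females (-0.01), against 0.34 at the bright one. None of these differences passed the test. With the mean of each sex taken off, the KDM4A probesets correlated over the embryos at -0.50, those of KDM8 at -0.27 and those of DNMT3B at 0.20. Among the other genes the correlations ran from -0.68, between probesets of KDM1A, to 0.88 for CHD1L.

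Of the 170 member probesets 81 were not tested, and 58 of these were over the detection level in no embryo. Most of them, 60, belong to genes that another probeset measured. For 12 genes no probeset was tested: CHD5, EZH1, HDAC7, KDM1B, KDM2A, KMT2D, KMT5B, PRMT1, SMARCB1, SMARCD1, SMARCD2 and TET3. Their 21 probesets reached at most 171 in a male and 165 in a female. For SMARCB1, a core BAF subunit, PRMT1, the main asymmetric arginine methyltransferase, and the others, a low level of the transcript and a weak response of the probes cannot be told apart.

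The partners of these proteins were examined in 8 lists, of Polycomb, COMPASS, BAF, NuRD and related corepressors, ISWI and INO80 subunits, acetyltransferases and sirtuins, and further methyltransferases, demethylases and DNA methylation factors. Together they had 178 tested probesets of 103 genes, with a median difference of -0.04, and 155 were bounded within 1.5-fold. The lists had 26 (Polycomb), 11 (COMPASS), 25 (BAF), 22 (NuRD and related corepressors), 30 (ISWI and INO80), 26 (acetyltransferases and sirtuins), 23 (further methyltransferases and readers) and 15 (further demethylases and DNA methylation factors) tested probesets. In all but the COMPASS list 0 were called in either direction. In the COMPASS list 1 of 11 tested probesets was male-higher and 0 female-higher. It belongs to PSIP1 (LEDGF), a chromatin tether of the KMT2A complex, which lies on Z. Of all tested probesets 2.76% were called in either direction, and 0.181% of those on numbered chromosomes. Of those of genes placed on Z, 57.0% were male-higher.

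That PSIP1 probeset had 117, 151 and 204 in males and 53.1, 116 and 133 in females, with 6 males above the highest female. The means were 160.1 ± 32.8 in males and 105 ± 25.1 in females (log2 difference 0.62, SE 0.16, adjusted p from limma 0.043). It reached the detection level in 8 of 9 males and 1 of 9 females, so it entered the test through the males. The call was lost when any 1 of 11 embryos was left out (females 3, 4, 5, 6 and 8 and males 1, 2, 3, 4, 6 and 8), with an adjusted p of 0.029 to 0.096 from limma over all 18 such fits. Its 2 brighter probesets averaged 9842 ± 702 in males and 8672 ± 909.6 in females (0.19, adjusted p from limma 0.409) and 6814 ± 1108 in males and 5168 ± 1006 in females (0.41, adjusted p from limma 0.123).

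The tissue was checked against 7 marker lists, and none of their tested probesets was called in either direction. Of all tested probesets 2.76% were called, and 0.181% of those on numbered chromosomes. Of the primitive streak and mesoderm list 7 of 10 genes were tested. TBXT (Brachyury), the defining gene of the streak, averaged 31163 ± 3873 in males and 30006 ± 4209.9 in females. NODAL was over the detection level in 0 embryos, FGF4 in 2 males and 4 females and MIXL1 in 3 males and 4 females. The summed signal of this list ran from 51119 to 88347 in males and from 38472 to 76532 in females. Here and for the other lists, sums were taken over all probesets of the list, tested or not. The brightest probesets weigh most in them.

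The organizer list had 4 of 6 genes tested and sums of 1687 to 8861 in males and 1248 to 8736 in females, and the endoderm list 4 of 4 genes and sums of 16172 to 31073 in males and 9366 to 28592 in females. The epiblast and early neural list had 4 of 5 genes tested and sums of 8349 to 12607 in males and 7170.0 to 10646 in females. The blood and endothelial precursor list had 4 of 7 genes tested, and its sums ran from 849 to 2319 in males and from 705 to 2774 in females. KDR was over the level in 7 males and 8 females, HBE in 9 males and 8 females, LMO2 in 4 males and 8 females and TAL1 in 5 males and 4 females, while HBZ, CDH5 and RUNX1 were below it in every embryo. For extraembryonic and surface ectoderm 3 of 5 genes were tested, with sums of 3575 to 9524 in males and 4571 to 20828 in females, and for differentiated tissue 0 of 9 probesets were tested. On each male array between 13922 and 15268 probesets reached the level, and on each female array between 13807 and 15152. The part of tissue makeup in the members' levels was not tested.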

How the data were processed

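The deposited values, per the authors made with MAS5, are an intensity (signal) per probeset on a linear scale, from 18 chicken embryos on 1 Affymetrix array each. The version and genome build are not given in the sources used here. Signals were turned to log2 with no constant, and the 96 control probesets were left out. Present calls were not used here, so the detection level of 128.9 was set to keep 14548 probesets, the number the study tested, and was applied alike to all chromosomes. The number of arrays limits the precision.

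Sexes were compared with limma 3.58.1 in R 4.3.3 (male minus female, 2-sided), with Benjamini-Hochberg adjustment over all tested probesets. The fit was also run on simulated data with independent noise for each probeset. Signals of real embryos need not be independent, so that run does not give the error rate here. The SAM test of the study was not run. Single probesets also had an exact permutation test over all splits of 9 and 9. Probesets were named through the array annotation, in which 27178 have 1 symbol, 177 several and 11180 none; 1 probeset with several symbols, of which 1 fits the rule, was left out. Chromosomes came from GRCg7b by gene ID, for all 170 members.

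The members and lists were chosen with earlier results of these data known. Named are every called member, 29 core genes (21 with a tested probeset), the largest difference of each family, the 5 most variable members, those on Z or W, and the 3 genes whose probesets differed most; KDM3B and a few further probesets were named after their values were seen. Alternatives changed the filter, normalization, transformation, variance model, probesets per gene, replicate block and embryos used.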

Additional observations from a re-analysis of the deposited data

Results flagged for a closer look

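Among 74 groups of 9 embryos (37 named probesets in each sex), 6 held 1 embryo whose gap to its nearest neighbour was larger, relative to the group's range, than Dixon's 95% limit for groups of 9. Gaps were taken on the linear signal. On the log2 scale used for the test other groups could be flagged, and this was not looked at. Chance gives about 1 such group in 20, but this rate does not apply here: 4 of the 6 came from HDAC9, TET2 and KDM4A probesets that were named for their large spread or for disagreeing with another probeset of the gene. CHD7 was 7265 in male 8, with the next male at 5645. HDAC3 was 1101 in male 4, with the next male at 536. HDAC9 was 396 in male 8, with the next male at 194, and 355 in female 9, with the next female at 182. The KDM4A probeset with a log2 difference of 0.19 was lowest in male 2, at 265, with the next male at 401. The dimmer TET2 probeset was 699 in male 1, with the next male at 275.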

How the results depend on the processing

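Over 28 alternative settings, the counts of 3 male-higher and 0 female-higher members were the same except with no filter (2 of 170 male-higher, 79 bounded within 1.5-fold) and with the brightest probeset per gene (1 of 53 male-higher, 45 bounded), which tests fewer probesets. Leaving out each embryo in turn gave 3 male-higher and 0 female-higher members each time, 73 to 77 members bounded and a median difference of -0.041 to -0.003. The partner lists had 1 probeset called, but 0 with no filter, quantile normalization, the stricter filter (which removes PSIP1's dim probeset), trend and robust variance or the replicate block. Without single embryos they had 0 to 2 called, the 2 without male 9 being both of PSIP1, and without female 9 and males 5, 6 and 8 the 1 called was of GATAD2A. Except where stated, the cause was not tested.

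Of 1018 values of single named probesets 955 kept sign and side of the threshold and 1 lost its call (the dimmest of SETD9, with no filter). Among the 9 probesets with a change of sign, DNMT1 and the dimmer TET2 had main differences of -0.15, and the others had smaller ones. Such changes of sign made up 62 values, none past the test. With array weights these were DNMT3B (dim) 0.04, HDAC1 0.02, KDM1A -0.002 and TET2 (brighter) 0.03. With quantile normalization they were DNMT3A 0.02, HDAC1 0.004 and TET1 0.02. Without female 9 and males 5, 6 and 8 they were HDAC1 0.03 and TET2 (brighter) 0.10. Leaving out single embryos gave CHD7 -0.10 to 0.004, DNMT1 -0.29 to 0.06, DNMT3A -0.03 to 0.01, DNMT3B (dim) -0.11 to 0.11, HDAC1 -0.05 to 0.03, KDM1A -0.02 to 0.03, TET1 -0.05 to 0.02, TET2 (dimmer) -0.42 to 0.05 and TET2 (brighter) -0.10 to 0.07. The lowest adjusted p from limma of a named member other than SETD9 under any setting was 0.155. Replicate numbers are shared by the sexes, but same-numbered embryos correlated at -0.238 to 0.207, with 4 of 9 pairs over 0.1 and 3 embryos closest to their own number, so the numbers do not pair them. With the number as a block, 3 members were male-higher, 0 female-higher and 76 bounded. The 81 member probesets that missed the detection filter were tested only in the setting with no filter.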
